A study of Mus musculus with 96 samples.

Results

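Integrins are the receptors by which cells hold on to the extracellular matrix, and 10 genes of integrin subunits were followed here in single cells of the mouse lung line C10. The genes were Itga1, Itga2, Itga3, Itga5, Itga6, Itgav, Itgb1, Itgb3, Itgb5 and Itgb7, taken by name from the 40202 genes that each count file lists. The series compared 48 libraries of untreated C10 cells (control) with 48 libraries of C10 cells given RO-3306, an inhibitor of CDK1, the kinase that drives entry into mitosis. Per the labels, the dose was 10 nM for 36 h, every culture was grown in RPMI with serum and glutamine, and each library came from 1 sorted cell. Libraries under 50000 counts or under 1000 detected genes were dropped, so 29 control and 37 RO-3306 cells remained. The protocol label spells the compound R03306, and neither this spelling nor the dose could be checked in the files.

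Each integrin is a pair of 1 alpha and 1 beta subunit that crosses the membrane, binds a matrix protein outside and couples to talin and the actin cytoskeleton inside. The pairing sets the ligand. Subunits α1 and α2 with β1 bind collagens, α3 and α6 with β1 bind laminins, α5β1 is the main fibronectin receptor, and αv pairs with β1, β3 or β5 to bind vitronectin, fibronectin and other proteins through an RGD motif. The β7 subunit pairs with α4 or αE and is known from lymphocytes that home to the gut. Lung epithelial cells and fibroblasts are known for β1 and αv integrins.

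The labels name no separate cultures, so each treatment was 1 sample, cells were not treated as replicates, and no p-value was computed. For each group, counts of its kept cells were added up and scaled to CPM, the usual unit for counts relative to a library's total. The log2 ratio is that of RO-3306 over control CPM, with 1 CPM added to both, and intervals (95%) cover counting error only. Sample titles hold the letters A, B, C and D in both groups, of unstated meaning. A gene is called lower or higher where the ratio is at least 2-fold and has the same sign in all 4 lettered sets. Summed kept counts were 66034079 in control and 92828839 in RO-3306, and totals per kept cell ran from 59979 to 6457215. At an equal depth of 639000 counts, the median number of detected genes was 4579 in control and 5976 in RO-3306 cells. The median mitochondrial share was 3.40% and 4.42%, with 1 RO-3306 cell at 56.0%.

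The labelled cell type was checked against markers. The labels call the line alveolar type II epithelial, and the list of 7 such genes had summed levels of 22.9 CPM (control) and 24 CPM (RO-3306), nearly all from Abca3 (9.38 and 5.21 CPM) and Lpcat1 (13.5 and 18.7 CPM). Sftpb had a count in 1 RO-3306 cell, and no kept cell had one of Slc34a2, Sftpa1, Sftpc or Sftpd. The epithelial list of 6 genes had summed levels of 1.78 CPM (control) and 0.978 CPM (RO-3306), with 0 to 396 and 0 to 48.2 CPM in single cells, and Krt18 and Cldn4 were at 0 in both. The mesenchymal list of 6 genes (Col1a1, Col3a1, Vim, Fn1, Acta2 and Cdh2) summed to 5579 CPM and 2523 CPM, with 1329 to 11354 CPM in single control cells and 1263 to 13886 CPM in RO-3306 cells. The cells are therefore called C10 cells below and given no tissue type.

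On GRCm39, the build of the counts, the members lie on 6 chromosomes and were counted over their whole spans, exons and introns alike. Itgb1 spans chr8:129412135-129460060, Itgb5 chr16:33650035-33769708 and Itgav chr2:83551625-83637261, all on the plus strand. Itga5 spans chr15:103252713-103275218, Itga3 chr11:94935301-94967637 and Itgb7 chr15:102124429-102141840, all on the minus strand. Overlap with other annotated genes covers at most 3.15% of any member's span (Itga2). Counts were fractional in 50.9% of the libraries with Itgb5 and 46.7% of those with Itga3, so some of their reads matched several places.

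The start regions of 4 members are shown because these genes carry the main results, Itgb5, Itgb1 and Itga5 as abundant subunits with lower summed counts in RO-3306 and Itgb7 as the subunit that was higher. Each sequence is the 250 bases before the annotated start in RefSeq, build GRCm38.p6, read 5′ to 3′ on the strand of the gene. The counted spans are of GRCm39, and whether each window lies directly before the counted span was not tested. Capitals mark GC boxes (GGGCGG on either strand), the site known to bind Sp and KLF factors.
Itgb5 promoter, chr16:33829415-33829664, plus strand: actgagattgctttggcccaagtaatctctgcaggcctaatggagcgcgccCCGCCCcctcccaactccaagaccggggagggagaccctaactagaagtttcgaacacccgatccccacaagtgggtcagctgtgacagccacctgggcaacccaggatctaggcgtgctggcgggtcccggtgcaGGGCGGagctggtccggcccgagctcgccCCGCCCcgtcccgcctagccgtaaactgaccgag
Itgb1 promoter, chr8:128685404-128685653, plus strand: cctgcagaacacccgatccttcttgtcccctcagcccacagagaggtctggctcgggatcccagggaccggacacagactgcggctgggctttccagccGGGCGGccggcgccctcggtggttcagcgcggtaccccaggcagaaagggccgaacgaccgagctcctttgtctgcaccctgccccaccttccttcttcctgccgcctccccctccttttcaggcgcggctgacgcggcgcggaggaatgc
Itga5 promoter, chr15:103366792-103367041, minus strand: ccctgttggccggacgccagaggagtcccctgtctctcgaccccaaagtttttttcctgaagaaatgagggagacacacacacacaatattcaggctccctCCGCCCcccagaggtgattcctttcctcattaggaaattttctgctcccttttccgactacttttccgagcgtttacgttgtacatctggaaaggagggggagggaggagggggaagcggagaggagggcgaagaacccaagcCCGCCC
Itgb7 promoter, chr15:102231936-102232185, minus strand: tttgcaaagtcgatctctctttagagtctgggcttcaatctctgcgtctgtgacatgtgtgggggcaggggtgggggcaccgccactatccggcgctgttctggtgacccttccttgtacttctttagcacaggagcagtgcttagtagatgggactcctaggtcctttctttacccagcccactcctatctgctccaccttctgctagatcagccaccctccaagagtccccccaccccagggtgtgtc

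The Itgb5 window held 3 GC boxes, that of Itga5 held 2, that of Itgb1 held 1, and that of Itgb7 held none. Over 32851 annotated start regions of the same length, 32.7% held at least 1. RefSeq start regions were found for 8 of the 10 members, all but Itga6 and Itgb3. The first listed region of Itga3 held 3 GC boxes, and those of Itga1, Itga2 and Itgav held none. The other motifs searched on both strands were AP-1 (TGANTCA, in 6.75% of all regions), the TATA box (TATAAA, 12.4%) and the CCAAT box (CCAAT, 33.8%). Among the members, the 1 match to these lay in the second listed region of Itga3, a CCAAT box.

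Per kilobase of mRNA, Itgb5 and Itgb1 had the highest levels of the members in both groups, an order that depended on the length used. In control cells Itgb5 stood at 63.5 CPM per kilobase of mRNA, Itgb1 at 47.1, Itga5 at 20.6, Itgav at 12.5, Itga3 at 8.29, Itga6 at 4.28 and Itgb7 at 1.30, while Itga1, Itga2 and Itgb3 had no count. In RO-3306 cells the order by the same scale was Itgb5 (30.6), Itgb1 (24.4), Itgb7 (10.3), Itgav (7.0), Itga3 (5.70), Itga5 (5.20), Itga6 (1.09), Itgb3 (0.640), Itga1 (0.152) and Itga2 (0.00758). Itgb7 was thus the lowest of the members with a control count and moved up to just below Itgb1 in RO-3306 cells. Cell C11 held 33.7% of the RO-3306 counts of Itgb7, and the rank was not recomputed without that cell. Single cells of every member overlapped those of its neighbours in this order, since each member had cells at 0. The counts cover whole gene spans. With span in place of mRNA length, 3 of the 7 members with a control count and 4 of the 10 in RO-3306 kept their rank. Per kilobase of span, control levels were highest for Itga5 (4.03), Itgb1 (3.75) and Itgb5 (1.74), and RO-3306 levels for Itgb1 (1.95), Itgb7 (1.59), Itga5 (1.02), Itga3 (0.857) and Itgb5 (0.84).

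The 10 members together made up 630 CPM (624 to 636) of the control counts and 332 CPM (328 to 335) of the RO-3306 counts. In single control cells the sum ran from 5.79 to 1957 CPM with a median of 482, and in RO-3306 cells from 2.24 to 1206 CPM with a median of 255. The ranges overlapped. Every kept cell had a count of at least 1 member. At equal depth the median cell had a count of 3 members in control and 3.5 in RO-3306, with 1 to 7 in both groups.

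**Figure D1:**
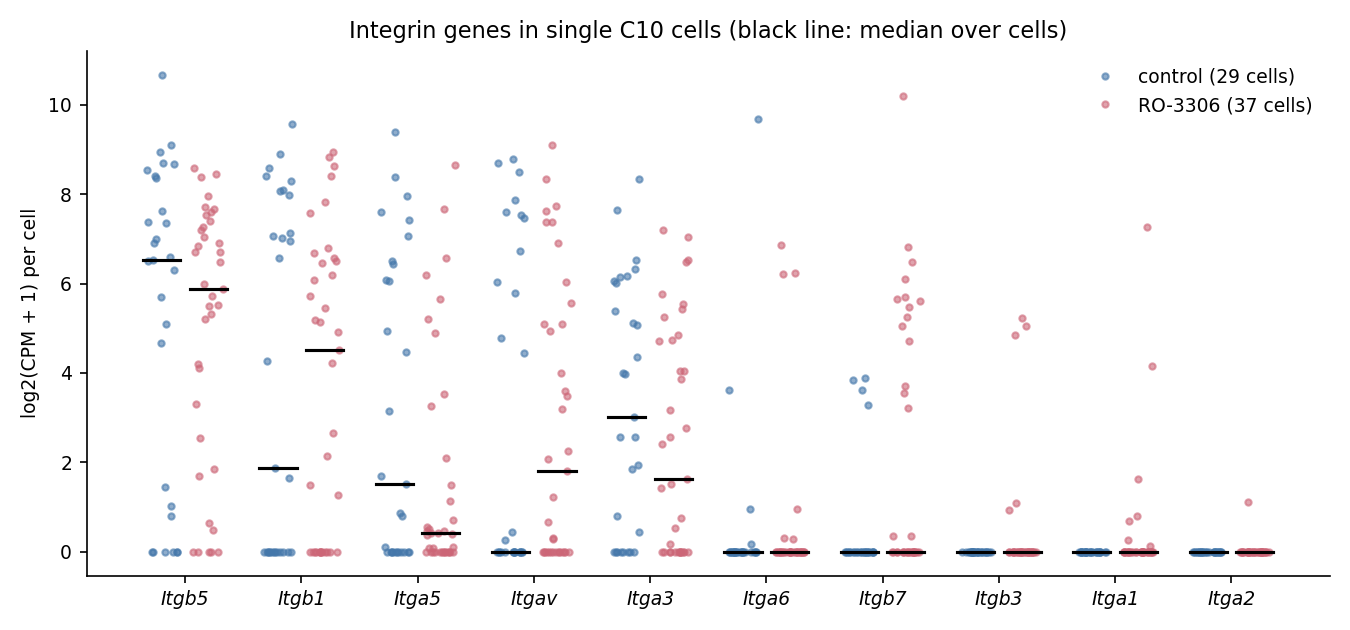
Each point is 1 kept cell, the vertical axis is log2(CPM + 1), and black lines are medians over the 29 control and 37 RO-3306 cells. Points at 0 have no count. Itgb5 has a median above 0 and few cells at 0 in both groups, whereas Itgb7 has counts in 4 control cells and 16 RO-3306 cells.

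Ratios were compared for the 7 members whose level, averaged over control and RO-3306, reached 5 CPM. Itga1, Itga2 and Itgb3 did not pass that limit. Of the 7, 1 was called higher (Itgb7) and 0 were called lower. Over all 9374 genes above the limit, 7.23% were called higher and 6.43% lower. By fold alone, 3 of the 7 were at least 2-fold lower (Itga5, Itga6 and Itgb5), against 24.2% of all genes, and 6 of the 7 were below 0, against 59.0%. The median log2 ratio of the 7 was -0.94, and that of all genes above the limit was -0.22.

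Itgb5, the β subunit that pairs with αv, was the most widely detected member. Control cells ranged from 0 to 1633 CPM with a median of 90.9, and RO-3306 cells from 0 to 381 CPM with a median of 57.8. The 5 highest control cells (D7, B12, B5, B8 and A2) stood above every RO-3306 cell, and the rest of the ranges overlapped. The sums were 208 CPM (205 to 212) and 101 CPM (98.5 to 103), a log2 ratio of -1.04. Itgb5 was counted in 23 of 29 (control) and 32 of 37 (RO-3306) cells, so the lower sum did not go with fewer cells with a count. At least 100 CPM was reached by 13 control and 16 RO-3306 cells. Without any 1 cell the ratio stayed between -1.16 and -0.82.

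Itgb1, the common partner of most alpha subunits, was lower in sum but not in the median cell. Control cells ranged from 0 to 754 CPM with a median of 2.67, and RO-3306 cells from 0 to 488 CPM with a median of 21.7. The median cell was thus higher in RO-3306, whereas the sum was lower, at 93.2 CPM (91.3 to 95.2) against 180 CPM (177 to 183), a log2 ratio of -0.94. Control cells were split between 13 without a count and 12 with at least 100 CPM, while 8 RO-3306 cells reached 100 CPM. Among the cells with a count, 16 in control and 24 in RO-3306, the median was 197 and 69.3 CPM. The control cell A3 held 35.5% of the control counts, and without it the ratio was -0.44.

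Itga5, the fibronectin-binding alpha subunit, had the lowest ratio of the members. Control cells ranged from 0 to 671 CPM with a median of 1.85, and RO-3306 cells from 0 to 402 CPM with a median of 0.332. The sums were 90.7 CPM (88.5 to 93.1) and 22.9 CPM (22 to 23.9), a log2 ratio of -1.94. The RO-3306 cell D6 held 42.3% of the RO-3306 counts, and without it the ratio was -2.62. A count above 0 was present in 18 of 29 and 24 of 37 cells, but in many RO-3306 cells it was small. In some cells of both groups it was under 1, as in RO-3306 B6 (0.45) and control D8 (0.2). With at least 5 counts required, 12 control cells (41.4%, 23.5% to 61.1%) and 10 RO-3306 cells (27%, 13.8% to 44.1%) had one. At equal depth the shares were 52% (31.3% to 72.2%) and 26.5% (12.9% to 44.4%), with overlapping intervals. Counts of Itga5 were fractional in 54.8% of the libraries with any, so some of its reads were also placed elsewhere in the genome.

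Itgav, the alpha subunit of the RGD receptors, ranged from 0 to 437 CPM in control cells, with a median of 0, and from 0 to 546 CPM in RO-3306 cells, with a median of 2.48. The sums were 88.4 CPM (86.1 to 90.7) and 49.4 CPM (48 to 50.9), a log2 ratio of -0.83. More RO-3306 cells had a count, 23 of 37 against 14 of 29, and among those the median level was lower, 29.5 against 140 CPM. The ratio in set B was 0.00, and without the RO-3306 cell B12 it was -1.04 over all sets, with every set below 0, which would make Itgav a lower gene by the rule.

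Among the laminin-binding subunits, Itga3 ranged from 0 to 322 CPM in control cells, with a median of 7.05, and from 0 to 146 CPM in RO-3306 cells, with a median of 2.10. Its sums were 40.3 CPM (38.8 to 41.8) and 27.7 CPM (26.6 to 28.8), a log2 ratio of -0.52. The other, Itga6, rested on few cells. It had a count in 4 control and 6 RO-3306 cells, and the control cell B8, at 826 CPM, held 99.3% of the control counts. Its sums of 18.4 and 4.71 CPM gave a log2 ratio of -1.77. Without B8 it was 2.34, with every set above 0, and without the RO-3306 cell B7 it was -2.86.

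Of the 7 compared members, Itgb7 (2683 nt) and Itgb5 (3282 nt) had the shortest mRNA, and the rest ran from 3815 nt (Itgb1) to 7054 nt. Ratios over all genes fell with mRNA length. The median log2 ratio was 0.25 in the tenth of genes with the shortest mRNA and -0.86 in the tenth with the longest. Itgav (7054 nt) and Itga3 (4861 nt) lay at the median of genes of like length, with differences of 0.03 and 0.04. Below it lay Itgb1 by a difference of -0.49, Itgb5 by -0.84, Itga6 by -1.32 and Itga5 by -1.37. Itgb7 (2683 nt) was above it by 2.84. The part of length in the ratios was not tested.

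Signs within the lettered sets were uneven, and set C stood apart. In sets A, B and D the log2 ratio of Itga3 was -1.69, -1.67 and -2.29, and in set C it was 1.36. For Itga5 the values were -2.79, -3.32 and -0.24, against 1.07 in set C, where control had 0.5 counts. For Itgb1 they were -1.12, -1.66 and -1.26, against 2.20. For Itgb5 they were -0.87, -1.55 and -1.36, against 1.27. This sign pattern, chosen after the values were seen, was held by 4 of the 7 members and by 7.79% of all genes above the limit.

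For Itga3, Itga5, Itgb1 and Itgb5, set C had the lowest level of the control sets, while its place among the RO-3306 sets differed by gene. For Itga3, control set C had 19.6 CPM, against 22.3, 32.7 and 149 CPM in control sets A, B and D. RO-3306 set C had 52 CPM, above the 6.21, 9.59 and 29.7 CPM of RO-3306 sets A, B and D. For Itgb1, control set C had 33.8 CPM, against 248, 199 and 43 CPM in control sets A, B and D. RO-3306 set C had 159 CPM, above the 114, 62.4 and 17.3 CPM of the other RO-3306 sets. For Itgb5 the set C level was 36.7 CPM in control, below the 165, 262 and 351 CPM of the other control sets. In RO-3306 it was 89.7 CPM, close to sets A and B. For Itga5 both set C levels were low, 0.0624 CPM (0.5 counts) and 1.22 CPM (37.44 counts, 30 of them in cell C10). The added 1 CPM thus limits the set C ratio of Itga5, whose sign kept that gene from being called lower. Summed over the members, the control cells of set C had 175 CPM, against 660, 689 and 814 CPM in control sets A, B and D. The RO-3306 sums were 297, 264, 394 and 342 CPM in sets A to D. Of the 6 control cells of set C, 2 had an Itgb1 count (C1 at 123 CPM and C2 at 129 CPM) and 2 had an Itgb5 count (C8 at 1.74 CPM and C12 at 166 CPM). The median ratio over all genes above the limit was also highest in set C, at 0.41, against -0.08, -0.26 and 0.24 in sets A, B and D. Without set C, 4 members were at least 2-fold lower with every remaining set below 0 (Itga3, Itga5, Itgb1 and Itgb5), against 11.5% of all genes. Without set B this held for 1 member, Itgav, against 8.08% of all genes.

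**Figure D2:**
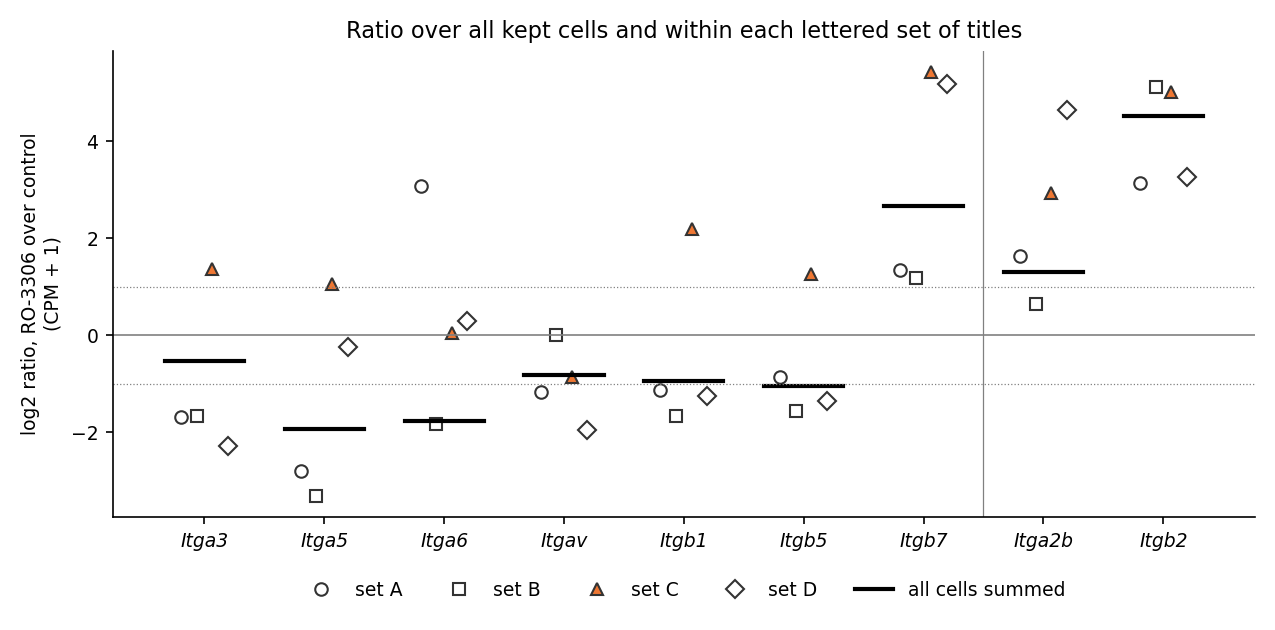
The vertical axis is the log2 ratio of RO-3306 over control (CPM + 1). Symbols are the 4 lettered sets, with set C filled, black lines are the ratio over all kept cells, and dotted lines mark 2-fold. For Itga3, Itga5, Itgb1 and Itgb5 set C lies above 0 and the other sets below, whereas every set of Itgb7, Itga2b and Itgb2 lies above 0.

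Itgb7 was the member called higher. Control cells ranged from 0 to 13.8 CPM and RO-3306 cells from 0 to 1171 CPM, with a median of 0 in both groups. The 4 control cells with a count were A5 (11.4 CPM), B4 (13.3), B5 (8.81) and B6 (13.8). Of the 16 RO-3306 cells with a count, 11 stood above the highest control cell, 10 of them from 25.2 CPM (C7) to 112 CPM (D2) and C11 at 1171 CPM. The sums were 3.50 CPM (3.06 to 3.98) and 27.7 CPM (26.7 to 28.8), a log2 ratio of 2.68. It was 1.34, 1.19, 5.43 and 5.18 in sets A to D, and control sets C and D had no Itgb7 count, so the added 1 CPM limits the last pair of values. Cell C11 held 33.7% of the RO-3306 counts, and without it the ratio was 2.12. No single cell left out ended the call.

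At equal depth, 4 of 25 control cells (16%, 4.54% to 36.1%) and 14 of 34 RO-3306 cells (41.2%, 24.6% to 59.3%) had an Itgb7 count, with overlapping intervals. The gene span overlaps no other annotated gene, and none of its counts was fractional. The alpha partners of β7 were scarce. Itga4 was at 0 in all 29 control cells, which allows a share of up to 10.3%, and in all 37 RO-3306 cells (up to 8.11%). Itgae, the αE subunit, stood at 1.36 and 1.34 CPM (-0.01; 0.83 without the control cell B5 and -0.75 without the RO-3306 cell B6), and 6 of the 16 RO-3306 cells with Itgb7 also had an Itgae count, against 1 of the 4 control cells.

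Itgb3, the platelet-type β subunit that also pairs with αv, and Itga1, a collagen receptor subunit, had counts in RO-3306 cells only among the kept cells. Itgb3 had no count in 29 control cells (up to 10.3% of cells, and up to 0.0454 CPM by a limit of 3 counts over the group). In RO-3306 it stood at 3.70 CPM (3.32 to 4.12), 81.4-fold above that limit. This fold covers counting error only and sets no minimum for the difference between the groups. The Itgb3 counts came from 5 cells, of which A5 held 53.1%, and without that cell the log2 ratio went from 2.23 to 1.5. Itga1 had no control count and 1.66 CPM (1.41 to 1.94) in RO-3306, 36.6-fold above the same counting limit. Its counts came from 7 cells, of which A11 held 51.1%. At least 5 counts of Itga1 were present in 2 cells. The other collagen receptor subunit, Itga2, had 5 counts in 1 RO-3306 cell, D8. Sets B and C held at most 1 count of Itga1 in either group, and sets B and D none of Itgb3.

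**Figure D3:**
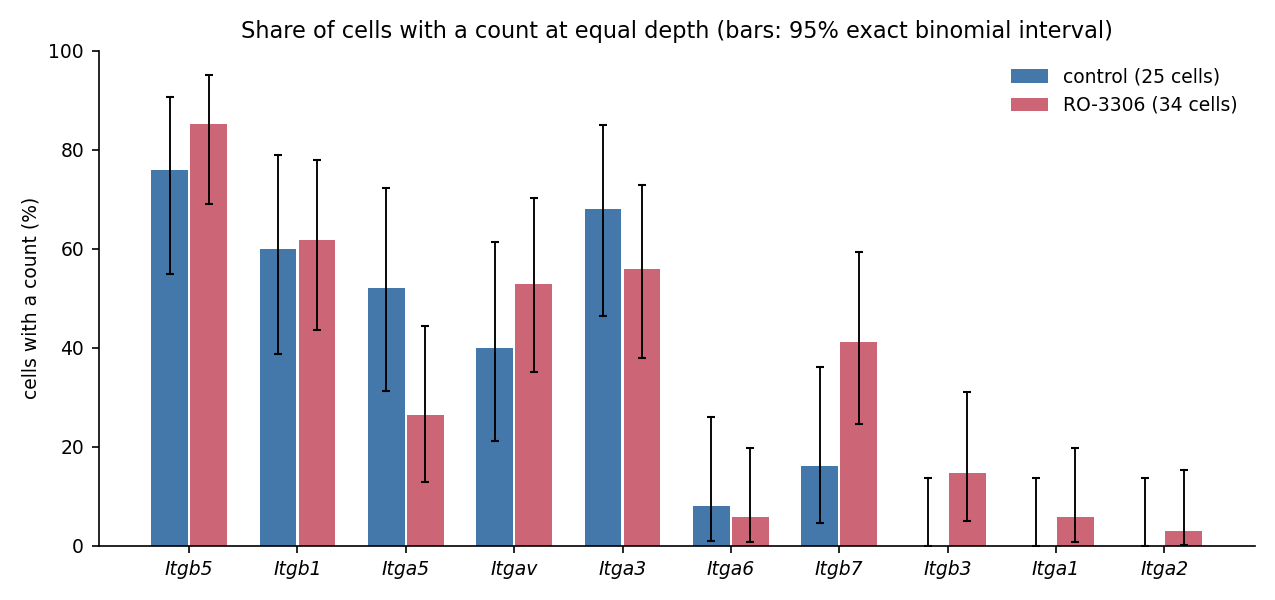
Bars give the percent of cells with a count after each cell was thinned to 639000 counts, for 25 control and 34 RO-3306 cells, with 95% exact binomial intervals. Itgb7 goes from 16% to 41.2% and Itga5 from 52% to 26.5%, and the 2 intervals overlap for every member.

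Cells were also counted by the subunit pairs that make known receptors, at equal depth. Both Itga3 and Itgb1 had a count in 12 of 25 control cells (48%, 27.8% to 68.7%) and 15 of 34 RO-3306 cells (44.1%, 27.2% to 62.1%). For α5β1 the numbers were 10 (40%, 21.1% to 61.3%) and 7 (20.6%, 8.70% to 37.9%), and for αvβ5 they were 9 (36%, 18% to 57.5%) and 15 (44.1%, 27.2% to 62.1%). Itgav and Itgb1 were both present in 6 control and 13 RO-3306 cells. Of the 10 control cells with Itgav, 1 lacked Itgb5 and 4 lacked Itgb1. Pairs α1β1, α2β1, α6β1 and αvβ3 were present in at most 2 cells of a group. All intervals of a pair overlapped between the groups.

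Across cells of a group, correlations between the members were mostly low. Over the 21 pairs of the 7 members, Spearman's correlation of log2(CPM + 1) at equal depth had a median of 0.13 in 25 control cells (range -0.09 to 0.35) and 0.04 in 34 RO-3306 cells (range -0.23 to 0.29). These are descriptions from sparse counts, so low values do not show that the members vary independently. The partners Itgav and Itgb5 stood at -0.09 and -0.04, and Itga5 and Itgb1 at 0.18 and 0.16. Over the 3701 genes that averaged 50 CPM or more, those most like Itgb1 by the mean of the correlations in the groups were Dimt1 (0.55), Ppp4r1 (0.55), Lgals3bp (0.48), Slc11a2 (0.47) and Sec61a2 (0.47). The median over all these genes was 0.06. The cells share library preparation and depth.

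Of the 17 other integrin subunit genes, 15 had a count in a kept cell and 3 passed 5 CPM. Itgb2, the β subunit of leukocyte integrins, had no count in 29 control cells and 22 CPM in RO-3306, from 10 of 37 cells that ranged from 0.600 to 157 CPM. By counting error only, Itgb2 stood 484-fold above a limit of 3 counts over the control group. Its log2 ratio of 4.52 was above 0 in the 4 sets, so it was called higher. In set D it rested on 1 cell, D9, without which the ratio there was 0 and the call ended, with 4.45 over all sets. Counts were fractional in 40% of the libraries with Itgb2. Without cell C5 the ratio over all sets was 3.90. Of its alpha partners, Itgal, Itgam, Itgax and Itgad had at most 0.0539 CPM each in RO-3306, and at most 2 of the 10 cells with Itgb2 had a count of any one of them. Of the 16 RO-3306 cells with Itgb7, 6 also had Itgb2. The leukocyte list of 12 genes had summed levels of 58.5 CPM (control; 8 genes with a count, 0 to 314 CPM in single cells) and 83.2 CPM (RO-3306; 7 genes, 0 to 436 CPM). Its defining gene Ptprc was at 0 in control and at 0.13 CPM in RO-3306, from 1 cell, and Cd3e was at 0 in both. Most of the sum came from Cd14 (26.4 and 45.3 CPM, in 13 and 26 cells) and Lyz2 (29.5 and 15.8 CPM, in 3 and 11 cells). Itgb2 is itself on that list and made up 0 CPM of the control sum and 22 CPM of the RO-3306 sum. The part of such markers in its ratio was not tested.

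Itga2b, the platelet αIIb subunit that pairs with β3, went from 5.06 to 13.9 CPM, seen in 5 of 29 control and 15 of 37 RO-3306 cells, and was called higher with a log2 ratio of 1.30. The call ended without any 1 of 3 RO-3306 cells, A2 (1.13, with set A at -1.07), B11 (0.87, with set B at -2.95) or D7 (0.77). It also ended with a pseudocount of 5 CPM (0.91) and without set D (0.81). Of the 15 RO-3306 cells with Itga2b, 3 also had Itgb3. The megakaryocyte and platelet list of 5 genes, which includes Itga2b, had summed levels of 5.06 and 32.3 CPM (0 to 89.4 and 0 to 208 CPM in single cells), from 1 and 3 of its genes. Ppbp went from 0 to 14.7 CPM (3 cells) and Gp1ba from 0 to 3.71 CPM (1 cell). Gp9 and Pf4 were at 0 in both groups, and the part of these markers in the ratio was not tested. Itga11, a collagen receptor subunit of mesenchymal cells, had 9.02 CPM (control) and 1.82 CPM (RO-3306), a log2 ratio of -1.83. Without the control cell A5 its log2 ratio was 0.03. Itgb4, the laminin-binding partner of α6 in epithelia, had 1.25 counts in control and 5.78 CPM in RO-3306, from 9 cells. The RO-3306 cell B10 held 55.6% of these, and without it the log2 ratio went from 2.73 to 1.83. Its span overlaps other genes over 17.1% of its length. Of the rest, Itga7 stood at 6.5 and 1.52 CPM (-1.57), and its ratio was -0.56 without the control cell B4, which held 62.2% of the control counts, and -2.19 without the RO-3306 cell A12. Itgam stood at 0.92 and 0.0108 CPM (-0.93), and the control cell A5 held 98.4% of its control counts, without which the ratio was -0.01. Itga8, Itga9, Itga10, Itgad, Itgal, Itgax, Itgb6 and Itgb8 stayed at or below 0.539 CPM in both groups.

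The wider pathway was read from lists of matrix ligands, cytoplasmic adhesion proteins, and membrane partners with trafficking proteins. Of the 32 ligands, 21 passed 5 CPM, with a median log2 ratio of -1.13; 4 were called lower and 0 higher, against 6.43% and 7.23% of all genes. Thbs1, a matricellular ligand, went from 570 to 40.7 CPM (-3.77), but its value in set A was -0.09 and turned above 0 without any 1 of 4 cells (control A9 at 0.77 or A11 at 0.41, RO-3306 A3 at 0.05 or A5 at 0.31), with ratios over all sets of -3.77 to -3.73. Without the control cell B4 its ratio was -3.11. Collagens Col3a1 and Col1a1 fell from 603 to 83.6 CPM (-2.84) and from 714 to 127 CPM (-2.48). Ccn1, a ligand of αv integrins, was the other one called lower (-2.47). Fn1, the ligand of α5β1, went from 729 to 182 CPM (-2.0). It was not called, since set A was at 0.06. Without any 1 of 5 cells (control A3, A5 or A10, RO-3306 A2 or A11) set A was below 0 and Fn1 was called lower, at -2.31 to -2.02, and without the control cell B4 its ratio was -1.22. Spp1, osteopontin and the most abundant ligand, stood at 2094 and 1506 CPM (-0.48). Mfge8, an RGD protein that αv integrins bind, was at 114 and 153 CPM (0.42), above 0 in every set.

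Of the 40 adhesion proteins, 33 passed 5 CPM, with a median of -0.59; 7 were called lower and 0 higher, against the same 6.43% and 7.23%. The lowest under the naming rule were Tln1, talin, the activator that binds β tails, which fell from 84.6 to 12.5 CPM (-2.66), Tns2, a tensin, from 107 to 18.7 CPM (-2.46), and Fermt2, kindlin-2, from 133 to 35.7 CPM (-1.87). The Tns2 call rested on the control cell B4, without which set B was at 0.01 and the ratio at -2.55. The others called lower were Pxn (-1.92), Actn4 (-1.64), Tns3 (-1.35) and Dab2 (-1.21). Of these, the calls of Pxn (control A9, at -1.90, or C1, at -1.71), Tns3 (control A5, at -0.97, or D9, at -1.20) and Dab2 (control C8, at -1.01, or D10, at -0.98) each ended without either of the cells in brackets. Without RO-3306 cells C5 and D9 in turn, Pxn was at -2.57 and Tns3 at -2.06. Zyx, zyxin, stood at 523 and 282 CPM (-0.89), and Rap1b, a GTPase upstream of talin, at 457 and 465 CPM (0.02). Nexn, an actin-binding protein of adhesions, was at 17.2 and 28.7 CPM (0.71), above 0 in every set. Its ratio was 1.94 without the control cell B12, -0.80 with cells weighted equally and -0.32 with cells thinned.

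Of the 18 membrane partners and trafficking proteins, 16 passed 5 CPM, with a median of -0.17; 1 was called higher and 0 lower, a share near the 7.23% of all genes. Plaur, the urokinase receptor, which associates with integrins at the membrane, rose from 48.9 to 149 CPM (1.59), seen in 13 of 29 control and 34 of 37 RO-3306 cells. Cd63, a tetraspanin of late endosomes, stood at 2229 and 3875 CPM (0.80), and Rab11a, a GTPase of integrin recycling, at 241 and 382 CPM (0.66), both above 0 in every set. Canx, a chaperone of newly made integrins, was at 570 and 313 CPM (-0.86), and Tspan4, a tetraspanin, at 313 and 224 CPM (-0.48), both below 0 in every set. Cav1 stood at 1111 and 963 CPM (-0.21).

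**Figure D4:**
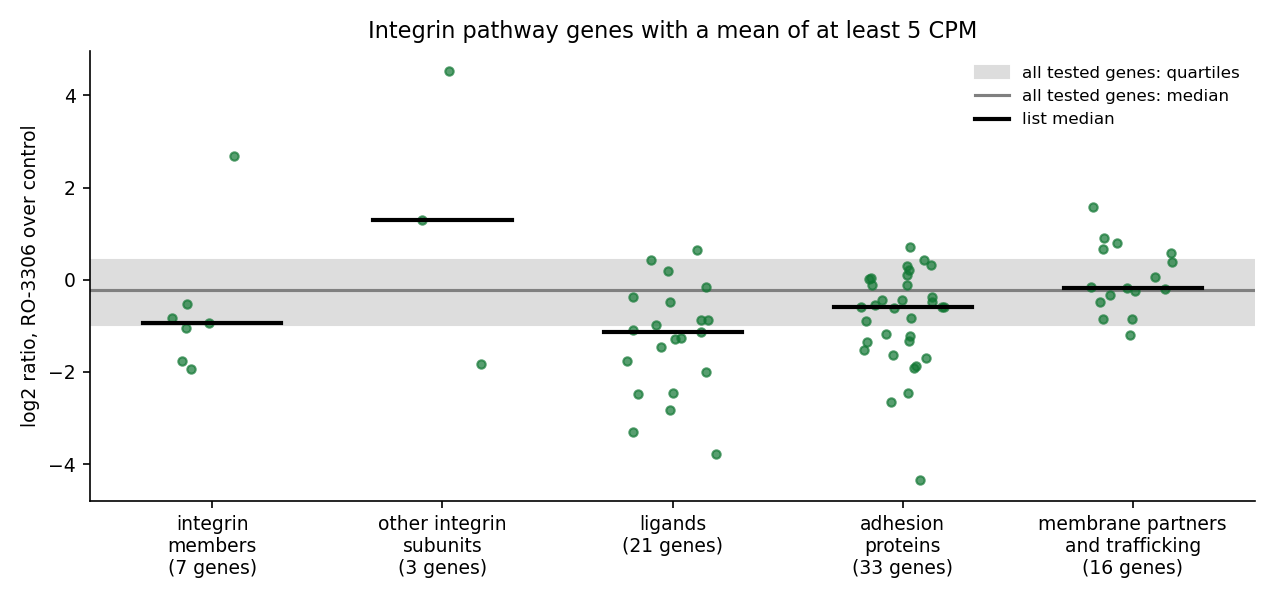
Each point is a gene averaging 5 CPM or more, the vertical axis is its log2 ratio of RO-3306 over control, black lines are list medians, and the grey band and line are the quartiles (-0.98 and 0.43) and median (-0.22) of 9374 genes. The medians of the members (-0.94), ligands (-1.13) and adhesion proteins (-0.59) lie below the grey line, and the highest member is Itgb7.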

How the data were processed

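RNA of single C10 cells was measured in 96 libraries, made with SMART-seq v4 per the labels' protocols. The deposited values are expected counts, made by the authors with featureCounts 2.0.3 over whole gene spans of the GRCm39 RefSeq annotation, with multi-mapped reads counted as fractions, per the file headers. STAR and FastQC are named, with no version, per the submitters' processing notes. The command in the headers gives no option for strand or for reads over several genes. Molecular identifiers are named in no source used here, so counts may include PCR copies, and intervals cover counting error only.

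Group sums, CPM, exact Poisson and Clopper-Pearson intervals, and thinning (fractions rounded, depth at percentile 10 of kept totals, 4 control and 3 RO-3306 cells left out) were computed with Python 3.11.15, numpy 2.4.6, pandas 2.3.3 and scipy 1.17.1. Scaling alternatives used edgeR 4.0.16 and DESeq2 1.42.0 in R 4.3.3. The mRNA length is that of the longest GENCODE M21 transcript with the same symbol, found for 97.2% of compared genes. Ratio steps were tested on simulated counts that varied around 1 mean per gene with known changes. These were not matched to genes carried by a few cells, so the test does not cover such genes. The members and lists were chosen with earlier results of these data known. Named were all members and other subunits with a count, and from each pathway list the 3 highest and 3 lowest ratios with 1 sign in all sets and at least 20 CPM, and the 2 most abundant genes, and the 5 genes most like Itgb1 among those averaging 50 CPM. Other genes called were named after their values were seen. The alternatives covered pseudocount, scaling, cell weighting, cell and gene filters, left-out sets and cells, and length.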

Additional observations from a re-analysis of the deposited data

Results flagged for a closer look

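Libraries below the count and gene minimum held some Itgb5. The 11 left-out RO-3306 libraries had 103 Itgb5 counts, or 88.6 CPM (72.3 to 107), in 2 libraries. The 19 left-out control libraries had none in 341166 counts, which allows up to 8.79 CPM. Itgb5 was singled out because this signal lay outside the main comparison and above the limit in control libraries. For the other 9 members the left-out RO-3306 libraries had from 0 to 6 counts each.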

How the results depend on the processing

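No paired analysis was possible because the labels give cells no shared culture and the numbers in titles are of unstated meaning. Of 589 recomputed values over 58 results, 286 stayed within their limits, 303 moved beyond them, and 0 turned a called value to the other sign. The limits were those of counting error, or a fixed fold for numbers of members called or kept in rank. Of the 513 log2 ratios among the recomputed values, 17 had the other sign or were 0, all of genes that were not called. The median log2 ratio of the members was -0.73 with TMM factors, -0.71 with DESeq2 size factors, -0.86 with cells weighted equally and -0.87 with cells thinned. It was -0.79, -0.71, -1.40 and -0.75 without sets A, B, C and D, -0.74 without the top cell of each gene, -0.49 after subtraction of the median log2 ratio at like mRNA length, and -0.88 with a minimum of 1 CPM. That of the adhesion proteins was -0.39 with TMM factors, -0.37 with DESeq2 size factors, -0.39 with cells weighted equally and -0.33 with length subtracted. That of the ligands was -0.91 with a pseudocount of 5 CPM, -0.93 with TMM factors, -0.91 with DESeq2 size factors, -0.63 with cells weighted equally, -1.36 with cells thinned, -1.79, -0.96 and -1.34 without sets A, B and C, -1.36 without top cells and -0.49 with length subtracted. TMM and DESeq2 factors shifted ratios of all genes by up to 0.21 and 0.24. With them the median log2 ratio of all genes above the limit went from -0.22 to -0.01 and 0.01. The cause of the other shifts was not tested.

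The number of members called lower, 0, became 1 without set B (Itgav) and 4 without set C. Itgb7 was called higher under every alternative except the minimum of 20 CPM, which its mean does not reach, so that the count was 0. Its ratio ran from 1.95 to 4.48. Itgb1 (-1.70 to -0.49), Itgb5 (-1.39 to -0.73) and Itga5 (-3.46 to -1.35) were below 0 under every alternative. Itga3 reached 0.04 with length subtracted and 0.03 without set D, Itgav 0.03 and Itga6 1.58. The share of RO-3306 cells with Itga1 was 5.41% with 5 counts required and 5.88% at equal depth. That with Itga5 was 27% and 26.5%, and that of control cells with 5 counts of Itga5 was 41.4%. That of RO-3306 cells with Itga6 was 5.88% at equal depth. With span as length, 3 control and 4 RO-3306 members kept their rank. Leaving out each cell in turn was added after seeing the data. By it, 0 to 1 members were called lower and 1 to 2 higher, and 3 to 6 ligands and 6 to 8 adhesion proteins were called lower. The share of all genes called in these runs is not given. With every kept cell it was 6.43% lower and 7.23% higher. From full to equal depth, RO-3306 cells with Itga1 went from 7 to 2 and those with Itga6 from 6 to 2, while those with Itgb3 stayed at 5 and those with Itga2 at 1.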
